A study of Bos taurus with 4 samples.

Results

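PLA2R1, the receptor for secreted phospholipases A2, was described together with 7 genes of phospholipase A2 enzymes and their partners: PLA2G1B, PLA2G4A, PLA2G6, PLA2G7, PLA2G12A, PLA2G15 and PLAA. All array probes annotated to these 8 symbols were taken, which gave 14 probes of 43794, for 8 of the 15216 genes with a symbol on the array. The genes were chosen by the slow-frozen over control ratios of these same arrays, above all the high ratio of PLA2R1, with the related genes added around it, so every ratio of a member below is a description without a test of its own.

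Bovine embryos had been produced in vitro, and compact morulae were either slow-frozen in glycerol, plunged into liquid nitrogen, thawed and cultured on (slow-frozen group), or cultured on without freezing (control group). RNA from pools of the resulting expanded blastocysts was amplified and labelled, and each of 4 arrays on 1 slide compared 1 slow-frozen pool with 1 control pool (n = 4 pools per group, each pair from a separate production cycle). The slow-frozen pool carried Cy5 on arrays 1 and 2 and Cy3 on arrays 3 and 4. The labels give 7 blastocysts per pool at 7 days after fertilization, whereas the methods state that pool sizes varied and that morulae, not blastocysts, were collected then. The labels also state that both pools of every array had been cryopreserved, although they name one as control and the series is described as a comparison with fresh embryos. Oocytes of both groups came from abattoir ovaries and were fertilized with frozen-thawed bull semen, so donor animals are mixed within a pool.

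Phospholipases A2 cut the fatty acid from the middle position of membrane phospholipids, releasing a free fatty acid, often arachidonic acid, and a lysophospholipid. Arachidonic acid feeds the synthesis of prostaglandins and leukotrienes, and acyltransferases can rebuild the lysophospholipid into membrane. Secreted, cytosolic, calcium-independent and lysosomal enzymes do this in different places. PLA2R1, a transmembrane protein of the mannose receptor family, binds some secreted members and takes them up into the cell. The bovine conceptus is itself known to make prostaglandins before it implants.

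The reading of a probe in 1 pool was its spot intensity minus the local background. It counted as detected when it exceeded the 95th percentile of the 153 negative control spots of the same channel, a limit of 44.8 to 173.2 for Cy5 and 156.4 to 173.8 for Cy3. The signals listed below precede normalization, and the dyes differ in scale. Only the normalized log2 ratios and levels therefore compare the groups. Of the 14 probes, 8 were detected in all 8 readings, beside 19232 of the 43794 on the array, and 1 in none. In all, 11 probes of 7 genes had the minimum of 4 detected readings needed to enter the fit. Over the whole array 30451 probes for 11827 named genes entered it. With 4 arrays, the precision of each ratio is limited.

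Across the array, limma's adjusted p was under 0.05 for 0 of 30451 probes (0%), with a lowest value of 0.9999. An unadjusted p under 0.05 was found for 573 probes. That is a smaller share than the 0.05 to be had when no probe differs, so nothing is read from this count. The study's own thresholds are a 1.5-fold difference or more with p below 0.05 before adjustment, and at these 84 probes were higher in slow-frozen pools (0.276%) and 39 were lower. With median centring in place of loess the split was 25 higher and 494 lower, and the median ratio was -0.081. Leaving out arrays 1, 2, 3 or 4 in turn gave 209 higher and 146 lower, 239 and 110, 183 and 304, and 547 and 394, so the balance turned without array 3. Correlations of the ratios between arrays, taken over probes, ran from -0.278 to 0.037. Of all tested genes 49% had a ratio above 0. The trophectoderm markers CDX2, GATA3, GATA2, TFAP2C, KRT8, KRT18 and IFNT were all detected in all 8 readings.

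PLA2R1 was represented by 3 probes. Its brightest, EMBV3_05556 (probe 1), had signals of 297, 821, 376 and 435 in the slow-frozen pools of arrays 1 to 4 and of 214, 333, 274 and 97 in the control pools. All 8 readings passed the limit, by 2.36 to 11.3 times in slow-frozen pools and by 1.37 to 2.17 times in control pools. PLA2R1 was thus measured in both groups with this probe, but close to background in every control pool and well clear of it in 1 slow-frozen pool.

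**Figure D1:**
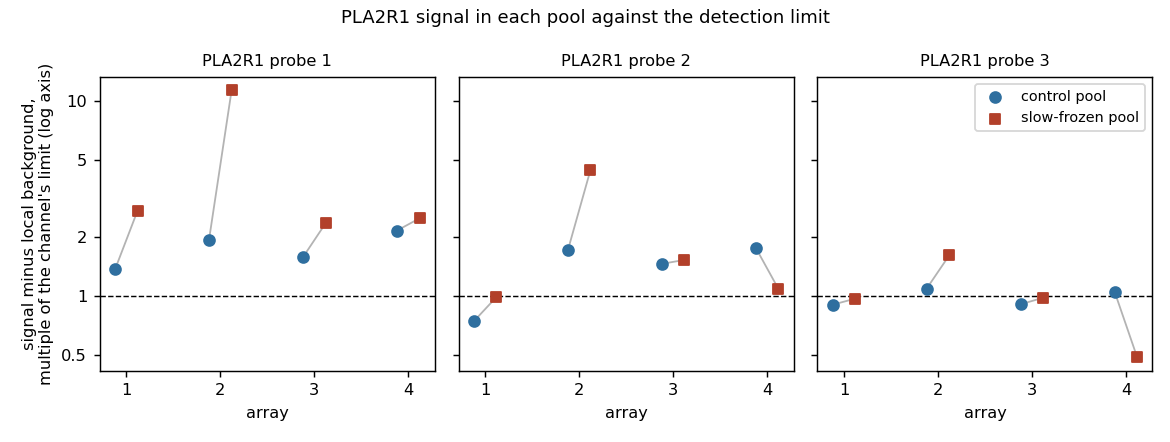
Signal of the 3 PLA2R1 probes in each pool, as a multiple of the detection limit of its own channel (log axis), for arrays 1 to 4, with the limit drawn at 1. Probe 1 lies above the limit in all 8 readings and reaches 11.3 in the slow-frozen pool of array 2, probe 2 is above it in 6 readings and probe 3 in 3.

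After normalization the log2 ratio of slow-frozen over control for PLA2R1 probe 1 was 1.01, 1.99, 0.09 and 1.06 on arrays 1 to 4. The ratio was above 0 on every array, near 0 on array 3 and highest on array 2. The fit gave 1.04 ± 0.23 (SE, n = 4), a fold of 2.05, and the SD of the 4 array ratios was 0.78. The SE of the fit leaves out the difference between the dye orientations, and the ratio averaged 1.50 on the arrays with the slow-frozen pool in Cy5 against 0.57 on those with it in Cy3. An exact test on the signs of 4 arrays could not go below p = 0.125, two-sided.

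The normalized log2 levels of PLA2R1 probe 1 were 8.49, 10.03, 8.32 and 8.62 in the slow-frozen pools, with a mean of 8.87 ± 0.79 (SD, n = 4). In the control pools they were 7.48, 8.04, 8.23 and 7.57, with a mean of 7.83 ± 0.37 (SD, n = 4). The groups did not overlap, but the lowest slow-frozen level and the highest control level, both on array 3, lay close together. Of the 11 tested probes this was 1 with slow-frozen levels all above control levels, beside 0.371% of all tested probes. It was also the 1 member probe past the study's thresholds, beside the 0.276% given above; as these ratios served to choose the gene, nothing is read from either count. Because the arrays measured pooled whole embryos, a higher or lower level can reflect RNA per cell or the number of cells of a type, and these cannot be told apart. The study also reports that a smaller share of slow-frozen than of control morulae became expanded blastocysts, and only such blastocysts were pooled. The part of this selection in the ratios was not tested.

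The other PLA2R1 probes did not repeat this ratio. Probe 2, EMBV3_08850, gave signals of 107, 320, 244 and 189 in slow-frozen pools and of 116, 294, 253 and 79 in control pools, from 0.74 to 4.42 times the limit, with 6 of 8 readings detected, 3 in each group. Its log2 ratio was 0.41, 0.93, -0.14 and -0.33 on arrays 1 to 4, with a fit of 0.22 ± 0.16 (SE, n = 4). The sign followed the dye, positive with the slow-frozen pool in Cy5 and negative with it in Cy3, and the levels of the groups overlapped.

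Probe 3 of PLA2R1, EMBV3_16538, was detected in 3 of 8 readings, 1 slow-frozen and 2 control, at 0.48 to 1.62 times the limit, and did not enter the fit. Its array ratios were 0.07, 0.50, -0.02 and -0.65, with a mean of -0.03 and an SD of 0.48. On all 3 probes array 2 had the highest ratio, although on array 4 probe 1 was positive where probes 2 and 3 were negative. Averaging the tested probes gave PLA2R1 a log2 ratio of 0.63 in place of 1.04. The array annotation does not say which PLA2R1 transcripts each probe reads.

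**Figure D2:**
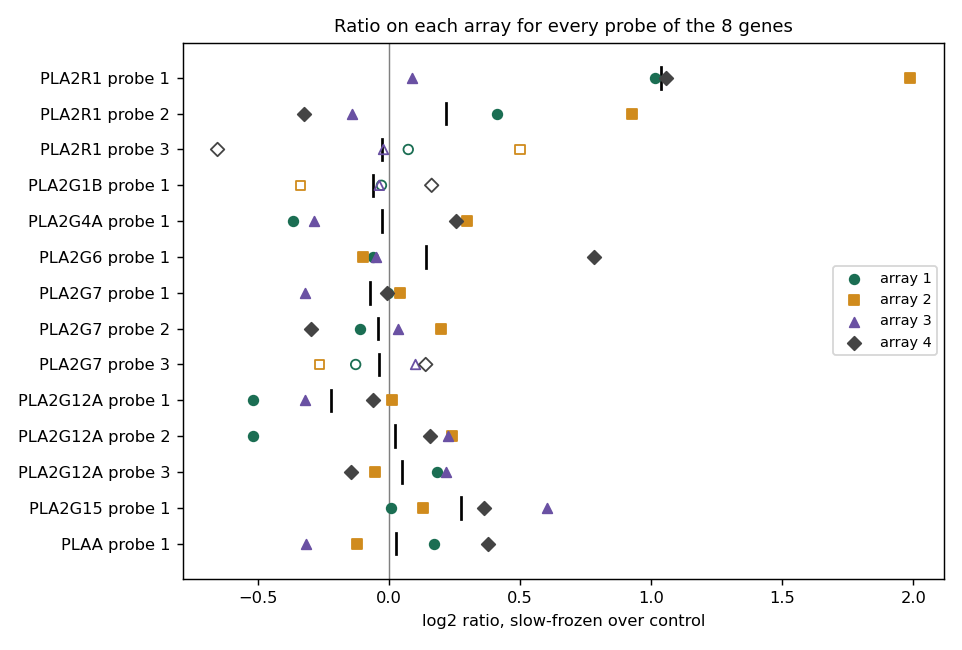
Log2 ratio of slow-frozen over control on each of the 4 arrays for the 14 probes of the 8 genes; the black tick is the mean over arrays and open symbols mark the 3 probes that did not enter the fit. PLA2R1 probe 1 and PLA2G15 lie above 0 on all 4 arrays, and PLA2R1 probe 1 reaches 1.99 on array 2.

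Some of the secreted enzymes are ligands of the receptor. PLA2G1B, the pancreatic digestive phospholipase A2 and a known ligand of PLA2R1, was below the limit in all 8 readings, at 0.70 to 0.96 times it, with signals of 100, 51, 147 and 148 in slow-frozen pools and 143, 164, 152 and 33 in control pools. The probe was not above background in either group, so no fold is given.

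PLA2G12A, a secreted enzyme that stands apart in sequence from the classical secreted forms, was detected in all 8 readings by each of its 3 probes. Its brightest probe read 584, 787, 838 and 914 in slow-frozen pools and 1152, 1160, 765 and 689 in control pools, and its log2 ratio was -0.52, 0.01, -0.32 and -0.06 on arrays 1 to 4, with a fit of -0.22 ± 0.16 (SE, n = 4). The other probes, EMBV3_29509 and EMBV3_38606, fitted at 0.02 ± 0.17 and 0.05 ± 0.15. The brightest probe fitted at -0.45 ± 0.20 with median centring in place of loess, and between -0.36 without array 2 and -0.09 without array 1. The 3 probes thus differed in sign and none had one sign on all 4 arrays.

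PLA2G7, the secreted platelet-activating factor acetylhydrolase, was read near background by 3 probes, which were detected in 7, 4 and 1 of 8 readings. The brightest gave signals of 149, 119, 152 and 235 in slow-frozen pools and 213, 246, 239 and 90 in control pools. Its ratios were -0.01, 0.04, -0.32 and -0.01, with a fit of -0.07 ± 0.14 (SE, n = 4), and the second probe fitted at -0.04 ± 0.15. The ratios lay on both sides of 0, and the signal was too low to resolve a small difference.

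Of the intracellular enzymes, PLA2G4A is the calcium-dependent cytosolic enzyme that releases arachidonic acid for prostaglandin synthesis. Its probe read 460, 892, 853 and 737 in slow-frozen pools and 819, 1075, 759 and 421 in control pools, 4.24 to 12.3 times the limit. The ratios of -0.37, 0.30, -0.29 and 0.26 were split evenly in sign, with a fit of -0.03 ± 0.18 (SE, n = 4) and an SD of 0.35. The fit was -0.25 with median centring in place of loess, and it was above 0 without array 1 (0.14) or array 3 (0.11).

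PLA2G6 is the calcium-independent enzyme known for the upkeep of membrane phospholipids and mitochondria. Its normalized log2 levels were 9.12, 9.99, 9.10 and 10.42 in slow-frozen pools and 9.19, 10.09, 9.15 and 9.63 in control pools, and all 8 readings passed the limit, by 2.74 to 14.3 times. On arrays 1 to 3 its log2 ratio was -0.06, -0.10 and -0.05, but array 4 gave 0.78, with a fit of 0.14 ± 0.18 (SE, n = 4). The mean above 0 rested on array 4, and without that array the ratio was -0.07. With median centring in place of loess it was -0.06.

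PLA2G15, the lysosomal phospholipase A2, had signals of 1033, 1051, 1756 and 1487 in slow-frozen pools and 1408, 1404, 819 and 864 in control pools, 4.73 to 19.3 times the limit. The log2 ratio was 0.01, 0.13, 0.60 and 0.36, above 0 on 4 of 4 arrays, with a fit of 0.27 ± 0.14 (SE, n = 4) and an SD of 0.26. It averaged 0.07 with the slow-frozen pool in Cy5 and 0.48 with it in Cy3, the opposite order to PLA2R1 probe 1. The levels were 10.18, 10.33, 10.58 and 10.39 in slow-frozen pools and 10.18, 10.20, 9.98 and 10.03 in control pools, and the groups overlapped. With median centring in place of loess the ratio was 0.02.

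Ratios above 0 on all 4 arrays were found for 2 of the 11 tested member probes, PLA2R1 probe 1 and PLA2G15, beside 3.99% of all tested probes, and again the genes had been picked with these ratios known. No member probe was below 0 on all 4 arrays. The share over all tested probes was not taken for that direction, so nothing is read from it.

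PLAA, named as a phospholipase A2 activating protein, binds ubiquitin and works with the ATPase VCP in sorting ubiquitinated proteins. Its probe read 706, 528, 765 and 1028 in slow-frozen pools and 868, 881, 697 and 567 in control pools, 4.02 to 12.7 times the limit. The ratios were 0.17, -0.12, -0.32 and 0.38, with a fit of 0.03 ± 0.17 (SE, n = 4), and no direction held across arrays. With median centring in place of loess the fit was -0.20. Counting PLAA, 10 of the 11 tested member probes had a fitted log2 ratio within 0.3 of 0, all but PLA2R1 probe 1. Most genes on the array lay within the same range, with 5th and 95th percentiles of -0.274 and 0.279.

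**Figure D3:**
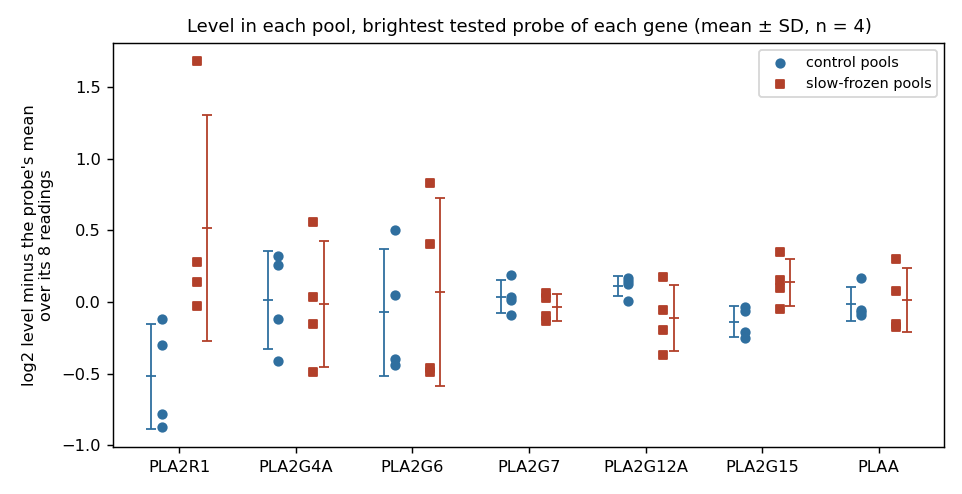
Normalized log2 level of the brightest tested probe of 7 genes in the 4 control and 4 slow-frozen pools, minus that probe's mean over its 8 readings (points, with mean ± SD, n = 4, beside them); distances compare pools within a gene, not genes. For PLA2R1 the groups do not touch and the slow-frozen pool of array 2 stands far above the rest, whereas the groups of the other 6 genes overlap.

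The ratio of PLA2R1 probe 1 stayed above 0 in all 12 other ways of processing and leaving out arrays. Leaving out 1 array could not turn the sign, because the ratio was above 0 on every array. Nor could averaging with probe 2, itself above 0, or the changes of filter and dye term, which left the ratio at 1.04. Changes of background correction, normalization, filter or dye term, and use of the deposited value table, moved it between 0.93 and 1.05, apart from the 0.63 from averaging probes. Leaving out 1 array moved it between 0.79 without array 2 and 1.28 without array 1 or array 3. Probe 2 stayed between 0.09 and 0.35 in its 10 alternatives.

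**Figure D4:**
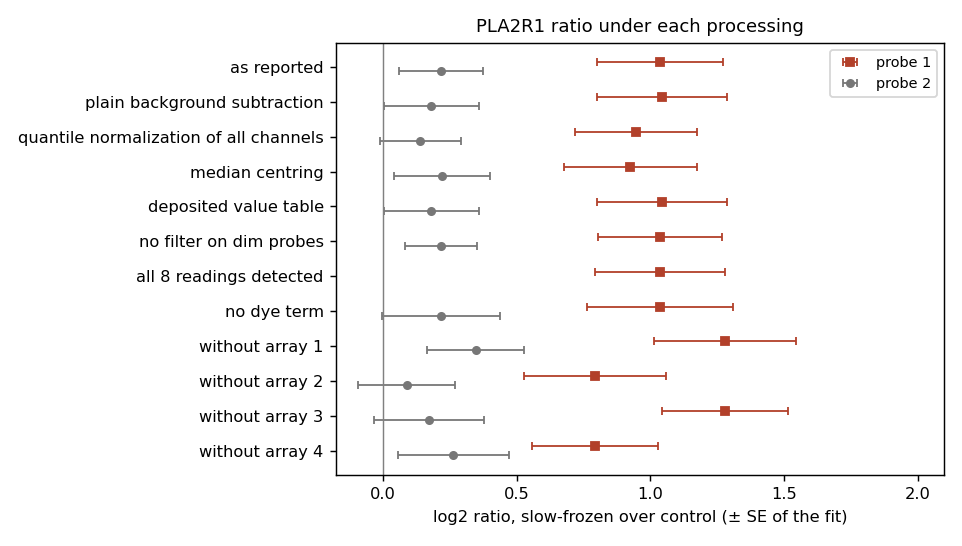
Fitted log2 ratio of slow-frozen over control (± SE of the fit) for PLA2R1 probes 1 and 2 as reported, under other processing and without each array. Probe 1 lies between 0.79 and 1.28 and probe 2 between 0.09 and 0.35; probe 2 has no value where all 8 readings had to be detected.

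Cell type markers moved on some of the same arrays. The inner cell mass markers POU5F1, NANOG, SOX2 and LIN28B, of which 3 of 4 were detected in all 8 readings, had 4 of 4 brightest probes with a ratio above 0, and their summed level differed between pools by -0.38, 1.44, 1.38 and 0.33 log2 units on arrays 1 to 4. It ranged from 12.59 to 13.42 in slow-frozen pools and from 11.85 to 12.97 in control pools. The sums add unlogged levels, so bright genes count most. By gene, NANOG had log2 ratios of -2.18, 3.24, 2.59 and -0.39 on arrays 1 to 4 and POU5F1 -0.13, 0.26, 0.94 and 0.45. SOX2 had -0.12, 0.81, 0.21 and -0.62, and LIN28B 0.54, 0.47, 0.12 and 1.38. LIN28B, read at 1.30 to 2.74 times the limit, fitted at 0.63 ± 0.22 (SE, n = 4) and passed the study's thresholds. They were passed in that direction by 0.169% of all tested genes. For the hypoblast markers with a probe, SOX17, PDGFRA and GATA4, 2 of 3 were detected in all readings. Their summed level differed by -1.23, 1.36, 0.21 and 0.00, from 10.66 to 12.49 in slow-frozen and 11.13 to 12.04 in control pools. On array 2 PDGFRA had a log2 ratio of 2.06, whereas GATA4 had -0.58 and SOX17 -0.47.

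PLA2R1 probe 1 was highest on array 2, where both sums were higher in the slow-frozen pool, but had 1.01 on array 1, where both sums were lower there, and 0.09 on array 3, where the inner cell mass sum was higher by 1.38. The trophectoderm sum of 7 markers, all detected, differed by 0.37, -0.15, 0.08 and -0.24. It ranged from 16.98 to 17.30 in slow-frozen and 16.91 to 17.45 in control pools. Of these 7 markers, 5 had a mean ratio above 0, while IFNT had -0.83, -1.45, 0.67 and -1.74 on arrays 1 to 4. Markers of cumulus and granulosa cells (3 of 6 detected throughout), leukocytes (2 of 3) and sperm (0 of 2) had ratios above 0 for 2, 0 and 0 genes. Their summed levels overlapped between the groups, at 11.46 to 12.29 against 11.80 to 12.13, 9.25 to 9.88 against 9.53 to 9.85, and 7.88 to 8.33 against 7.68 to 8.52 in slow-frozen and control pools. No marker with a probe was below the limit in all 8 readings, and the part of cell makeup in the PLA2R1 ratio was not tested.

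The level of PLA2R1 probe 1 over the 8 pools was set against the other probes, as a description of values that share arrays and normalization. Its own probes 2 and 3 gave Pearson's r of 0.70 and 0.46 (n = 8), and without the slow-frozen pool of array 2, its highest reading, 0.24 and -0.34 (n = 7). The likeness between PLA2R1 probes therefore rested on that 1 pool. Among the other members r over all 8 pools was highest for PLA2G4A, at 0.56, and 0.07 without that pool. It went the other way for PLAA, from -0.07 to 0.64, and was 0.40 and 0.46 for PLA2G15.

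The 5 genes most like PLA2R1 probe 1 were NPL, a lyase of sialic acid breakdown, RNF2, a ubiquitin ligase of Polycomb repressive complexes, SDR16C5, a dehydrogenase that acts on retinol, HK2, a hexokinase, and LZTR1, an adaptor for a cullin ubiquitin ligase. Their r was 0.96, 0.94, 0.93, 0.93 and 0.93 (n = 8), and 0.90, 0.80, 0.74, 0.73 and 0.88 without the slow-frozen pool of array 2 (n = 7). SDR16C5 and LZTR1 read near background, at 0.90 to 1.59 and 1.09 to 1.41 times the limit. NPL, the nearest, had log2 ratios of 0.68, 1.02, 0.30 and 0.58 on arrays 1 to 4 and a fit of 0.65 ± 0.15 (SE, n = 4). This NPL probe passed the study's thresholds, as did 0.276% of all tested probes in that direction. These genes were selected for likeness among all tested probes, so the size of r is a result of that selection.

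The remaining genes of the pathway were described by lists, with 1 probe, the brightest tested, per gene. At the study's thresholds 0.169% of the tested genes were higher and 0.211% lower, and the median log2 ratio of all tested genes was -0.00376, with 5th and 95th percentiles of -0.274 and 0.279. Among the 7 tested members 4 were higher and 3 lower than 0, 1 (PLA2R1) passed the thresholds and the median was 0.03. In every one of the 8 other lists, 0 genes passed the study's thresholds in either direction and 0 passed limma's adjusted p.

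**Figure D5:**
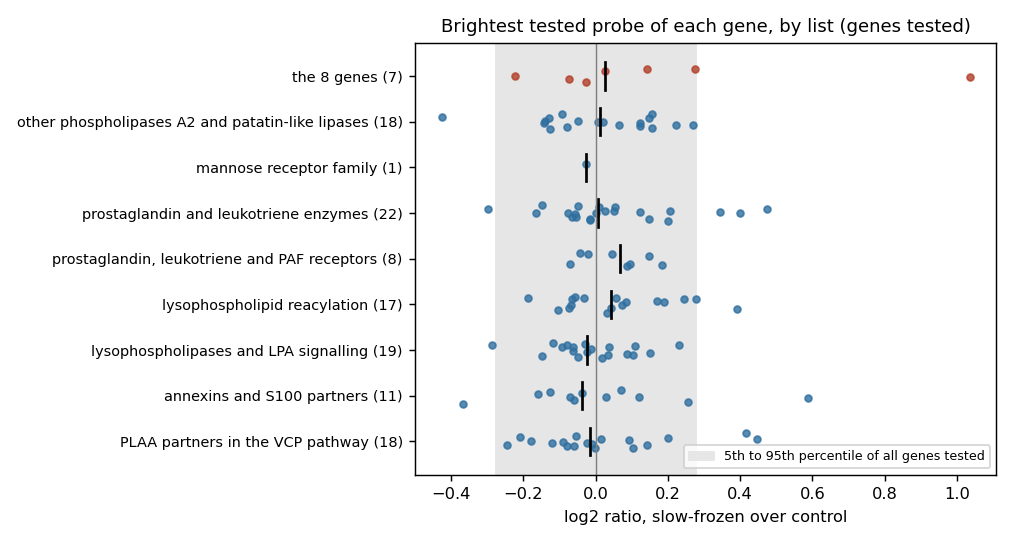
Fitted log2 ratio of slow-frozen over control for the brightest tested probe of each gene (points) and the median of each list (black tick), for the 8 genes and 8 related lists; the shaded band spans the 5th to 95th percentile of all 11827 tested genes, -0.274 to 0.279. PLA2R1, at 1.04, is the rightmost point, and the medians of all lists lie between -0.04 and 0.07.

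Of 33 other phospholipases A2 and patatin-like lipases, 24 had a probe and 18 were tested, with 10 above and 8 below 0 and a median of 0.01. The 7 other secreted enzymes on the array, possible ligands of PLA2R1, had 12 probes, of which 2 were detected in all 8 readings and 4 in none, and no reading exceeded 2.73 times the limit. The 3 other cytosolic group IV enzymes, PLA2G4D, PLA2G4E and PLA2G4F, had 0 of 3 probes detected throughout, with a highest reading of 1.09 times the limit. Most of the other secreted and cytosolic genes were thus near or below what these arrays could measure, which does not show that they are not expressed.

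The largest ratio in size in that list was that of PLA2G16, a lipid-modifying enzyme of the PLAAT family, at -0.43 ± 0.15 (SE, n = 4), from -0.94 and -1.12 on arrays 1 and 2 and 0.36 and -0.01 on arrays 3 and 4. It was thus well below 0 with the slow-frozen pool in Cy5 and above or near 0 with it in Cy3. PNPLA3, a patatin-like lipid droplet protein, had 0.27 ± 0.19 and PAFAH2, an intracellular platelet-activating factor acetylhydrolase, 0.22 ± 0.21. A second PNPLA3 probe gave 0.04. In the mannose receptor family, to which PLA2R1 belongs, 3 of 5 other genes had a probe and 1, the collagen receptor MRC2, was tested, at -0.03 ± 0.14. MRC2 read near background, at 0.98 to 1.45 times the limit.

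Downstream of arachidonic acid, 22 of 28 prostaglandin and leukotriene enzymes were tested, with 12 above and 10 below 0 and a median of 0.01. PTGS2, the inducible cyclooxygenase, had a log2 ratio of 0.39, 0.11, 1.20 and 0.20 on arrays 1 to 4 and a fit of 0.47 ± 0.20 (SE, n = 4), and its other probes gave 0.39 and 0.40. MGST2, a microsomal glutathione transferase able to make leukotriene C4, and AKR1B1, an aldo-keto reductase with prostaglandin F synthase activity in cattle, had 0.40 ± 0.20 and 0.34 ± 0.35. Their second probes gave 0.07 and 0.08. PTGS2 was thus above 0 with all 3 probes, without passing the thresholds.

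Of the receptors for these lipids 8 of 14 were tested, 5 above and 3 below 0, with a median of 0.07. The leukotriene receptor CYSLTR1 had 0.18 ± 0.14, and the prostaglandin E2 receptors PTGER2 and PTGER4 had 0.15 ± 0.15 and 0.10 ± 0.16, against -0.08 and -0.09 for a second tested probe of each. All of these ratios lay within the range of most genes. The brightest probes of these 3 receptors read near background, at 0.85 to 1.53 times the limit.

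For the other product, lysophospholipid, 17 of 21 genes of reacylation were tested, 10 above and 7 below 0, with a median of 0.04. The cardiolipin acyltransferase LCLAT1 had 0.39 ± 0.19, the acyl-CoA synthetase ACSL1 0.28 ± 0.17 and the lysophosphatidylcholine acyltransferase LPCAT3 0.25 ± 0.18 (SE, n = 4). Of 22 lysophospholipases and genes of lysophosphatidic acid signalling 19 were tested, 8 above and 11 below 0, with a median of -0.02. GDE1, a glycerophosphodiesterase, had -0.29 ± 0.18 with its brightest probe but 0.36 and 0.14 with the others. LPAR3, a lysophosphatidic acid receptor, had 0.23 ± 0.14, above 0 on 4 of 4 arrays, and the lipid phosphatase PLPP1 had 0.15 ± 0.16, with -0.05, -0.10 and 0.01 for its other probes.

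Annexins bind phospholipid membranes in the presence of calcium, and some are known to hold back phospholipase A2 activity. With their S100 partners 11 of 14 were tested, 5 above and 6 below 0, with a median of -0.04, and ANXA6, ANXA11 and ANXA4 had 0.59 ± 0.34, -0.37 ± 0.32 and 0.26 ± 0.19. The other tested probes gave -0.16, 0.03 and -0.01 for ANXA11 and 0.02 and -0.17 for ANXA4. Among the partners of PLAA in the VCP pathway 18 of 19 were tested, 7 above and 11 below 0, with a median of -0.02. VCP itself had 0.45 ± 0.19 with its brightest probe, above 0 on 4 of 4 arrays, but -0.25 ± 0.15 with the other. NSFL1C, a VCP cofactor, had 0.42 ± 0.26, with -0.02 and 0.24 for its other probes, and UBXN2B, a related cofactor, had -0.24 ± 0.21. UBXN2B read near background, at 0.74 to 2.21 times the limit. Its ratios were 0.41, -0.08, -0.11 and -1.20 on arrays 1 to 4.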

How the data were processed

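The deposited scanner files hold raw intensity, as the median of each spot and of its surroundings in both channels, before any correction by the authors, for 4 arrays of both dyes of the EmbryoGENE bovine platform hybridized with amplified RNA. The deposited value table holds log2 Cy5 over Cy3 ratios: it correlated at 0.99994 or above with ratios recomputed by plain background subtraction (negative values set to 0.5) and loess. Its array medians were -0.00227, 0.00051, -0.00227 and 0.00171, so direction and centring were settled. For scale, the fit of PLA2R1 probe 1 was 1.045 from the deposited table and 1.045 from plain subtraction. The study's methods describe plain subtraction, lowess, quantile normalization and LIMMA; 0 of the columns of per-sample values were left unused.

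Here intensities were corrected with normexp (offset 50), normalized by loess within arrays with control spots at weight 0, and fitted in limma 3.58.1 (R 4.3.3) with a treatment and a dye term (eBayes, Benjamini-Hochberg, threshold 0.05). The SE given is the moderated one of the treatment term. Levels came from loess followed by Aquantile. Probes with at least 4 of 8 readings above the limit and no scanner mark to ignore them were fitted. Symbols came from the platform annotation (21790 probes), 1524 of them updated through RefSeq synonyms. The pools came from separate production dates. With the dye term fitted, p-values rest on the spread between arrays of the same dye orientation, moderated over probes. They do not measure the whole spread between the dates.

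The members and the gene lists were chosen with earlier results of these data known. Named genes were every member, the 3 largest absolute ratios per list with any gene past the study's thresholds, and the 5 genes most like PLA2R1. The code was tested on simulated data. Alternatives were plain subtraction, other normalizations, the deposited table, no filter or a stricter one, other detection limits, no dye term, probe averaging and leaving out each array.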

Additional observations from a re-analysis of the deposited data

Results flagged for a closer look

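Of 55 sets of 4 values examined (array ratios of member and named genes, and member levels per group), 6 held 1 value far from the other 3 by Dixon's test, which marks about 1 in 20 sets by chance. PLA2G6 had a log2 ratio of 0.78 on array 4 against -0.10 to -0.05 on the others. PLA2G7 probe 1 had -0.32 on array 3 against -0.01 to 0.04. PLA2G12A probe 2 had -0.52 on array 1 against 0.15 to 0.24. PLAA had a control log2 level of 9.73 on array 3 against 9.48 to 9.51 in the other control pools. Among the list genes, PLPP1 had -0.35 on array 1 against 0.24 to 0.36, and NSFL1C had 1.56 on array 3 against -0.05 to 0.19. PLA2R1 was not among these 6.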

How the results depend on the processing

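The count of probes past the study's thresholds was 123 as reported, 109 to 157 with plain subtraction, quantile normalization, the deposited table, other filters or no dye term, and 519 (25 higher, 494 lower) with median centring in place of loess, which moved the median ratio to -0.081. Without 1 array it was 349 to 941, and 0 to 1 probes passed limma's adjusted p, the 1 arising without array 3. The PLA2R1 ratio kept its sign in all 12 alternatives, from 0.63 to 1.28, though most of them could not turn it. Of 77 alternatives for the other member ratios 69 kept the sign. Those that did not were PLA2G4A without array 1 (0.14) or 3 (0.11), PLA2G6 with median centring (-0.06) or without array 4 (-0.07), PLA2G7 without array 3 (0.01), and PLAA with median centring (-0.20) or without array 1 (-0.05) or 4 (-0.15). The causes were not tested. Changes of filter and dye term leave each fitted ratio as it was, so those alternatives could not turn a sign. Of the 112 readings of member probes, 85 were above the limit, 81 with the 99th percentile and 84 with the mean plus 2 SD of the negative controls, and PLA2R1 probe 3 went from 3 to 1 detected readings at the 99th percentile. Signal near background limits PLA2R1 probes 2 and 3, PLA2G7 and PLA2G1B. It also limits the control readings of PLA2R1 probe 1, at 1.37 to 2.17 times the limit. Among other named genes it limits MRC2, CYSLTR1, PTGER2, PTGER4, UBXN2B, SDR16C5 and LZTR1.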
